A study of Homo sapiens with 6 samples.

Results

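MYC and genes of ribosome assembly were followed in UMUC3-c31 cells treated with a synthetic androgen. The genes were taken from a list of 46, as those with a probe set that the platform annotation gives to 1 gene only, and 44 of them were measured among 18129 genes in all. DDX18 and GNL3 were not analysed here. Where a gene had several such probe sets, the one with the highest mean over the 6 arrays stood for it. UMUC3-c31 is named for UMUC3, a human bladder carcinoma line, and the origin of c31 is not stated in the labels. All cells were first kept in charcoal-stripped serum, depleted of steroids, for 24 h. The vehicle group then received ethanol for 24 h and the treated group 10 nM R1881 for 24 h, with 3 arrays in each group. The design text calls these biological replicates. The comparison asks which of the transcripts of this program differed after the androgen.

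MYC is a transcription factor that pairs with MAX, binds short DNA motifs called E-boxes and drives genes of cell growth. Making ribosomes is among its best known outputs. RNA polymerase I transcribes the ribosomal RNA precursor in the nucleolus, guide RNAs bound to small core proteins direct its modification, and large assembly machines then cut and fold it into the small and large subunit.

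Values are log2 array signals, so a change is a difference of log2 means, given as R1881 minus vehicle with its standard error (SE). A gene was called changed when its adjusted p in a linear model over all 18129 genes was under 0.05. The array medians ran from 5.49 to 5.51, the first principal component set the groups apart, and on the second vehicle replicate 1 scored 11.04, against -8.21 and -6.99 for its fellow replicates. R1881 replicate 1 scored 5.69 on the second component, against -0.67 and -0.87 for the other R1881 arrays. The treatment was visible in FKBP5, a common target of steroid receptors, which rose 2.80-fold. Of 15 measured urothelial and epithelial markers 6 lay above the background level of 4.99, among them KRT18 and KRT8, while EPCAM, CDH1 and the uroplakin genes UPK1B, UPK2 and UPK3A lay below it. KRT18 fell by 0.37 ± 0.05 (adjusted p = 0.00830), KRT7 rose by 0.40 ± 0.06 (adjusted p = 0.0192), and the other 13 did not pass. Of 13 markers of immune, endothelial and fibroblast cells 4 lay above it in at least 1 group, CD68 at 8.93 with vehicle and 8.69 with R1881 and CD3E, PDGFRB and VWF at no more than 5.29 in either group. None of these 4 was called, and PTPRC, COL1A1 and DCN lay below it.

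None of the 44 genes was called changed, beside 2.42% of all genes (1.60% higher and 0.816% lower). Their changes ran from -0.19 to 0.09, that is from 0.875 to 1.06 times the vehicle level, and their median was -0.07, where the median over all genes was 0.00. Lower by sign were 39 of the 44, beside 48.7% of all genes and 51.6% of the 11049 genes above background (median change -0.01). The 5 of the 44 that were higher by sign were MYC, POLR1C, PES1, BOP1 and PPAN. An unadjusted p under 0.05 (limma) was reached by 6 genes, all lower, beside 14.3% of all genes (7.19% lower and 7.07% higher). That count ran from 3 to 8 without any 1 array, being 3 without vehicle replicate 1 and 4 without R1881 replicate 2, and reached 15 with a trended and robust prior. In 15 genes every R1881 array lay below every vehicle array, beside 9.93% of all genes, and in none did every R1881 array lie above, beside 8.53%. In either direction 18.5% of all genes had groups that did not overlap, and 25.9% of the 11049 genes above background. Of those 11049 genes 1634 were lower and 1230 higher without overlap. An unadjusted p under 0.05 (limma) in either direction was reached by 2105 of them. Above background lay 43 of the 44 genes. The smallest change called anywhere in the table was 0.22 in size, and all 44 genes lay under that. The median SE of the 44 genes was 0.05. The genes were chosen with earlier results of these data known, and genes of 1 program are not independent of each other, so these counts are a description.

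**Figure D1:**
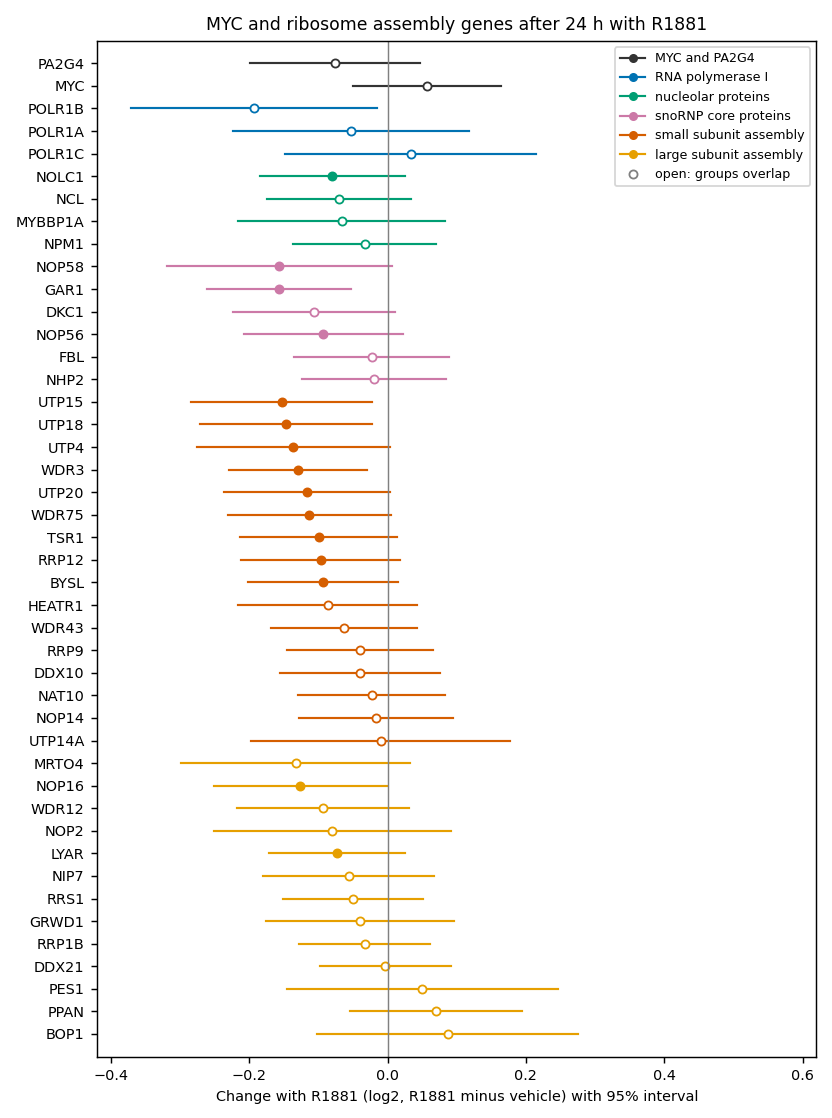
Change of each gene with R1881 (log2, R1881 minus vehicle; points) with the 95% confidence interval of the moderated fit (bars), coloured by role. Filled points are the 15 genes whose groups did not overlap, and most points lie left of 0, between -0.19 and 0.09.

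The same values were also described by array. Taking each gene's deviation from its own mean over the 6 arrays, the median over the 44 genes was 0.032, 0.028 and 0.028 in the vehicle arrays and -0.015, -0.057 and -0.028 in the R1881 arrays. The groups did not overlap in this median, and the R1881 arrays differed more among themselves than the vehicle arrays did. R1881 replicate 2 was the lowest, with 20 of the 44 genes at their lowest value there and none at their highest. The median over all genes deviated by at most 0.01 in any array. Left out in turn, the arrays gave a median change between -0.08 and -0.06 with 35 to 40 genes lower by sign, and without R1881 replicate 2 these were -0.06 and 36.

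**Figure D2:**
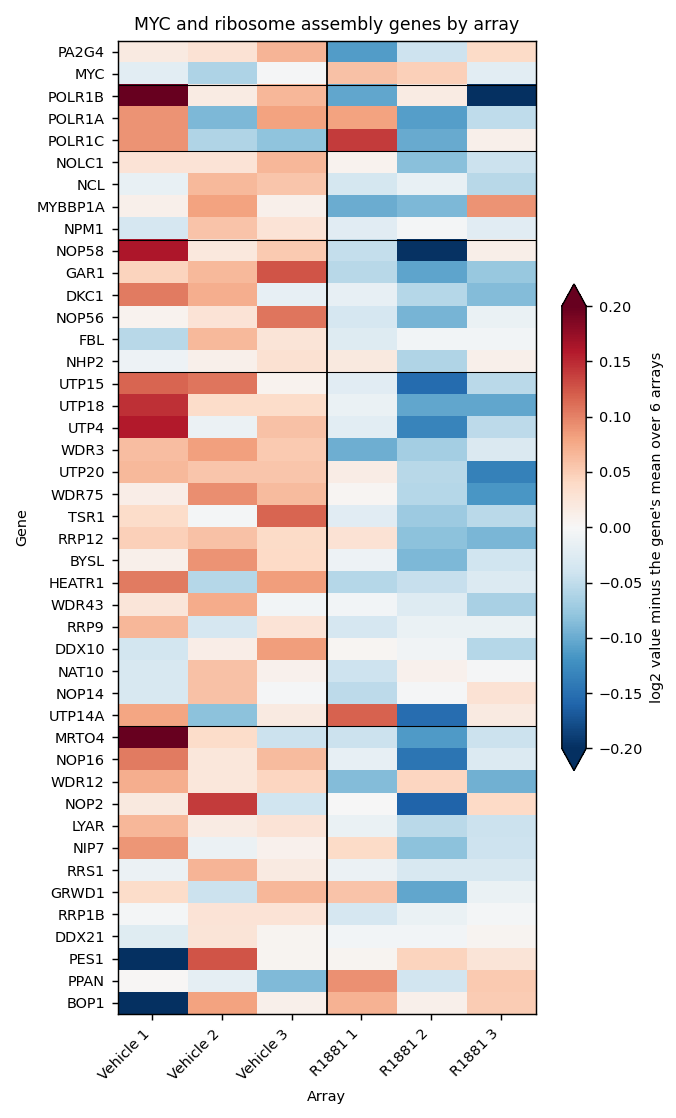
Log2 value of each gene (rows, grouped by role) in each array (columns), minus the gene's mean over the 6 arrays. The 3 vehicle columns are mostly red (above the gene's mean) and the R1881 columns mostly blue, with the palest of these in R1881 replicate 1, where 15 of the 44 genes lie above their mean.

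MYC transcript itself hardly differed. It read 10.63, 10.59 and 10.65 in the vehicle arrays and 10.71, 10.70 and 10.63 in the R1881 arrays. The groups overlapped, since R1881 replicate 3 fell within the vehicle range. The change was 0.06 ± 0.05 (SE), that is 1.04-fold, its 95% confidence interval ran from -0.05 to 0.16 on the log2 scale, and the adjusted p was 0.611. The two-sided p of an exact permutation test was 0.30, where 3 against 3 cannot go below 0.10. MYC has 1 single-gene probe set on this array, so no further set stands beside this value. PA2G4, a growth-regulating protein that binds ribosomes, read 11.71, 11.72 and 11.76 with vehicle and 11.58, 11.65 and 11.73 with R1881. Its change of -0.08 ± 0.05 did not pass, and the groups overlapped.

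None of the 3 subunits of RNA polymerase I passed the test, and no test compared them with each other. POLR1B, the second-largest subunit of the enzyme, had the largest fall by sign of all 44 genes. It read 7.96, 7.77 and 7.82 with vehicle and 7.65, 7.77 and 7.55 with R1881, a change of -0.19 ± 0.08 (adjusted p = 0.312). The groups touched at 7.77, shared by vehicle replicate 2 and R1881 replicate 2. All 6 of its probe sets were lower by sign, from -0.21 to -0.05, and on 4 of the other 5 the groups did not overlap, at -0.15, -0.18, -0.20 and -0.21. POLR1A, the largest subunit, stood at -0.05 ± 0.07. POLR1C, which RNA polymerases I and III share, read 8.07, 7.92 and 7.90 with vehicle and 8.12, 7.88 and 7.99 with R1881. Its change was 0.03 ± 0.08, and the sign turned on its other 2 probe sets (-0.01 and -0.24), the lower of which lay below background.

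The transcripts of 4 nucleolar proteins had small changes. NOLC1, a chaperone of small nucleolar ribonucleoproteins (snoRNPs), read 11.29, 11.29 and 11.33 with vehicle and 11.27, 11.18 and 11.22 with R1881. The groups did not overlap, by a margin of 0.02 between the nearest arrays, and the change was -0.08 ± 0.04 (adjusted p = 0.468). NPM1, the histone chaperone nucleophosmin, read 13.51, 13.60 and 13.57 with vehicle and 13.52, 13.54 and 13.52 with R1881, with overlapping groups. Its change was -0.03 ± 0.04. NCL, the RNA-binding protein nucleolin, stood at -0.07 ± 0.04 and MYBBP1A, a nucleolar partner of MYB, at -0.07 ± 0.06. All 4 genes were lower by sign and none passed.

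The transcripts of the core proteins of the guide RNA particles were all lower by sign, with a median of -0.10 over 6 genes, and none passed. GAR1, of the H/ACA particles that direct pseudouridylation, had the smallest p of all 44 genes. It read 9.80, 9.82 and 9.88 with vehicle and 9.70, 9.65 and 9.68 with R1881. Every R1881 array lay below every vehicle array, and the change was -0.16 ± 0.04, or 0.897 times the vehicle level (adjusted p = 0.166). GAR1 was called when the prior variance was allowed to follow the signal and to be robust (adjusted p = 0.0355), in a fit that called 895 genes where the reported one called 438, and not in any other alternative, where the adjusted p ran up to 0.566. Its second probe set stood at -0.08. Of its partners, DKC1, the pseudouridine synthase dyskerin, stood at -0.11 ± 0.05. NHP2 read 11.75, 11.77 and 11.79 with vehicle and 11.78, 11.70 and 11.77 with R1881, a change of -0.02 ± 0.04 with overlapping groups.

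Of the box C/D particles, which direct methylation of ribose, NOP58 read 10.85, 10.71 and 10.74 with vehicle and 10.64, 10.49 and 10.70 with R1881. The groups stood apart by 0.01 between their nearest arrays, and the change was -0.16 ± 0.07 (adjusted p = 0.369). Its second probe set stood at -0.18 and did not overlap either. NOP56, its close relative in the same particle, stood at -0.09 ± 0.05 without overlap, and all 4 of its probe sets were lower. FBL, the methyltransferase fibrillarin, stood at -0.02 ± 0.05.

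All 16 measured genes of small subunit assembly were lower by sign, with a median of -0.095, and in 9 of them every R1881 array lay below every vehicle array, beside 9.93% of all genes. None passed the threshold. The sign was not firm in UTP14A (below background), NOP14 and NAT10, whose changes reached 0.063, 0.008 and 0.00 without 1 array. UTP15 belongs, with UTP4, HEATR1, WDR43 and WDR75, to the first module that joins the nascent precursor RNA. It read 7.51, 7.50 and 7.40 with vehicle and 7.37, 7.24 and 7.34 with R1881. The change of -0.15 ± 0.06 (adjusted p = 0.279) was the largest fall by sign of this group, and its 3 probe sets lay between -0.15 and -0.09. UTP4 read 9.83, 9.66 and 9.73 with vehicle and 9.65, 9.54 and 9.62 with R1881, a change of -0.14 ± 0.06. WDR75 read 9.12, 9.20 and 9.17 with vehicle and 9.11, 9.05 and 8.99 with R1881, a change of -0.11 ± 0.05 on this set and -0.19 on its other one. In UTP15, UTP4 and WDR75 the nearest arrays of the groups lay within 0.03 of each other. HEATR1 stood at -0.09 ± 0.05 and WDR43 at -0.06 ± 0.04, both with overlapping groups.

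UTP18 and WDR3 are WD-repeat proteins of the next module. UTP18 read 10.52, 10.41 and 10.41 with vehicle and 10.36, 10.27 and 10.27 with R1881, a change of -0.15 ± 0.05 (adjusted p = 0.276). WDR3 read 9.25, 9.27 and 9.24 with vehicle and 9.09, 9.12 and 9.16 with R1881, a change of -0.13 ± 0.04 (adjusted p = 0.226). In both genes the groups stood apart, and their other probe sets were lower too, at -0.07 and -0.10. UTP20, a large scaffold protein, read 7.35, 7.34 and 7.34 with vehicle and 7.30, 7.23 and 7.15 with R1881. The vehicle arrays were nearly equal there and the R1881 arrays spread below them, for a change of -0.12 ± 0.05 (adjusted p = 0.363). UTP14A could not be judged on its own set, which read 4.94, 4.78 and 4.88 with vehicle and 4.98, 4.71 and 4.88 with R1881. Both groups lay below the background level there, and a brighter set that it shares with UTP14C stood at -0.06 ± 0.05.

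The other genes of this group ran from -0.10 to -0.02. TSR1, a GTPase-like factor of the cytoplasmic precursor, stood at -0.10 ± 0.05, the export factor RRP12 at -0.10 ± 0.05 and BYSL, a factor of late precursors, at -0.09 ± 0.05, each without overlap between groups. RRP12 was less sure by probe set, since its other 2 sets stood at 0.01 and 0.08. The helicase gene DDX10 and RRP9, a protein of the U3 particle, both stood at -0.04, the RNA acetyltransferase gene NAT10 at -0.02 and NOP14 at -0.02, all with overlapping groups.

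The E-box CACGTG, the hexamer that MYC and MAX bind, was looked for in the promoters of these genes as a feature that the choice of probe sets did not use. Sequences of 300 bases, from 250 before to 50 after the transcript start, were found for 37 of the 44 genes in a RefSeq table (GRCh38.p14). The hexamer reads the same on both strands. It lay in 14 of the 37 promoters (37.8%), beside 8.88% of 15843 protein-coding promoters of the same length. The genes were listed as MYC and a program known as its output, so a higher share is no independent result. The promoters beside them were not matched for signal level or base content. In the 250 bases before the start alone the hexamer lay in 5 of the 37 (13.5%), beside 7.84% of all. Small subunit assembly genes held it most often, in 9 of 15, followed by 3 of 10 large subunit genes, 1 of 5 snoRNP genes and 1 of 3 nucleolar protein genes, while PA2G4 and the 3 polymerase subunits had none. Of the 15 matches 9 began within the 50 bases after the start, 5 lay before it and 1 across it. The windows shown are those of the 4 genes whose groups did not overlap, with UTP18 holding a pair, and of 4 genes whose groups did. Capitals mark the hexamer, and each is written 5′ to 3′ on the gene's strand.
UTP4: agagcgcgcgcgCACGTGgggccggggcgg
UTP18 before the start: gggagtgctggtCACGTGgcaagaggctgc
UTP18 after the start: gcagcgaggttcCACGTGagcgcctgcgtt
UTP20: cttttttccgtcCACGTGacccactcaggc
BYSL: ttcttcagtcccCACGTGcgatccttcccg
NAT10: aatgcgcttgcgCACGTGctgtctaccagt
WDR43: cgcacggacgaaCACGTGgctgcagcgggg
FBL: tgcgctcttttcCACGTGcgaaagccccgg
PES1: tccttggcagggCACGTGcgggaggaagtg

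These windows lie at chr16:69132621-69132650 (UTP4, plus strand), chr17:51260445-51260474 and chr17:51260538-51260567 (UTP18, plus), chr12:101280083-101280112 (UTP20, plus) and chr6:41921515-41921544 (BYSL, plus). The others lie at chr11:34105602-34105631 (NAT10, plus), chr2:28894658-28894687 (WDR43, plus), chr19:39846356-39846385 (FBL, minus) and chr22:30591880-30591909 (PES1, minus). The hexamer ended 10 bases before the start in UTP4, 4 in UTP20, 9 in NAT10 and 83 for the upstream match of UTP18. The 14 genes with it had a median of -0.07 (13 lower by sign) and the 23 without it a median of -0.08 (21 lower). Among genes without overlap 4 of 12 held it, and among those with overlap 10 of 25. A match is a description of these letters and not of binding in these cells. Beside them, 11 of 36 other small subunit factors, 11 of 40 other large subunit factors, 10 of 27 translation and growth targets of MYC, 4 of 13 cell division genes and 3 of 55 ribosomal protein genes held the hexamer.

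The 13 measured genes of large subunit assembly were more mixed, with 10 lower by sign, 3 higher and a median of -0.05, and none passed. NOP16 read 9.49, 9.41 and 9.45 with vehicle and 9.37, 9.24 and 9.36 with R1881. Its groups did not overlap and its change was -0.13 ± 0.05 (adjusted p = 0.343), but its other 2 probe sets stood at -0.05 and 0.06, the latter below background. MRTO4, which keeps the place of the ribosomal stalk until late assembly, read 9.03, 8.86 and 8.78 with vehicle and 8.78, 8.71 and 8.78 with R1881. The groups touched at 8.78, and the change was -0.13 ± 0.07. LYAR, a nucleolar zinc-finger protein, was the other gene of the group without overlap, at -0.07 ± 0.04. Its second set stood at -0.22, with overlapping groups.

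PES1, BOP1 and WDR12 form a complex needed for maturation of the large subunit RNA. BOP1 read 9.87, 10.17 and 10.10 with vehicle and 10.16, 10.10 and 10.14 with R1881. Its change of 0.09 ± 0.08 was the highest of the 44 genes, and it rested on vehicle replicate 1, which was low. Without that array the change was 0.00 (-0.0017). PES1 showed the same low value in vehicle replicate 1, at 9.37 against 9.70 and 9.58, and stood at 0.05 ± 0.08, or -0.04 without that array. WDR12 did not share it and stood at -0.09 ± 0.05. The third gene higher by sign was PPAN, at 0.07 ± 0.05, and a further probe set shared with its readthrough transcript PPAN-P2RY11 stood at 0.03 ± 0.07.

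The remaining large subunit genes had changes between -0.08 and 0.00. These were the RNA methyltransferase gene NOP2 at -0.08 ± 0.07, NIP7 at -0.06 ± 0.05, RRS1 at -0.05 ± 0.04, the histone-binding factor GRWD1 at -0.04 ± 0.06, RRP1B at -0.03 ± 0.04 and the helicase gene DDX21 at 0.00 ± 0.04. NOP2 had further sets at -0.20 and -0.09 and NIP7 a second set at -0.16, each without overlap between groups. RRP1B had a second set at 0.21, below background.

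Most genes had the same sign on their several probe sets. Over all 104 single-gene probe sets of the 44 genes, 91 were lower by sign, 12 higher and 1 equal, beside 49.7% of 44898 probe sets lower. None of the 104 was called when every probe set was tested, beside 1.61% of all. Of 33 genes with more than 1 set, 25 had every set on the same side of 0, and MYBBP1A had 1 set at exactly 0.00. The others were POLR1C, HEATR1, WDR43, RRP12, NOP16, RRP1B and WDR12. Of the 44 chosen sets 20 carry an s or x before "_at" and can hold probes of related transcripts.

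**Figure D3:**
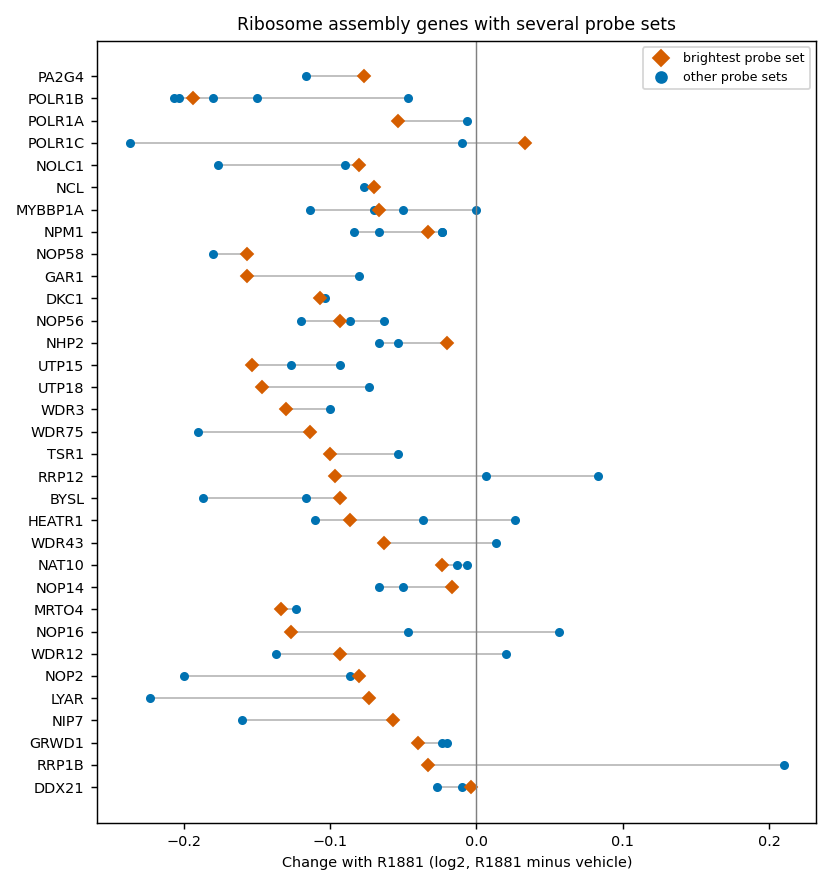
Change with R1881 (log2, R1881 minus vehicle) on every single-gene probe set of the 33 genes with more than 1 (diamond, the brightest set that stood for the gene; circles, its other sets). Most symbols lie left of 0, and the far right one is the dim second set of RRP1B at 0.21.

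Around MYC, the called changes lay in other genes of its network. Of 14 measured network genes other than MYC 3 rose and 11 did not pass (none fell, median 0.00), beside 1.60% of all genes called higher. MXI1, a repressor that competes with MYC for MAX, read 10.64, 10.75 and 10.73 with vehicle and 11.27, 11.31 and 11.25 with R1881. It rose by 0.57 ± 0.05, or 1.48-fold (adjusted p = 0.00167), and kept its call in every alternative run. MXD4, a repressor of the same family, read 7.53, 7.58 and 7.56 with vehicle and 7.91, 7.81 and 7.94 with R1881. It rose by 0.33 ± 0.05, or 1.26-fold (adjusted p = 0.0198), and lost its call without any 1 array but R1881 replicate 2 and with the replicate block (adjusted p up to 0.0924). MLXIP encodes MondoA, a glucose-sensing factor that pairs with MLX. It read 7.96, 8.04 and 7.99 with vehicle and 9.28, 9.11 and 9.24 with R1881, and rose by 1.21 ± 0.06, or 2.32-fold (adjusted p = 1.52e-04).

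The rise of MLXIP was 0.60 over the mean of its 4 probe sets, and it kept its call there. The remaining partners stayed near their vehicle level: MAX stood at -0.04 ± 0.04, MXD1 at 0.00 ± 0.06, MXD3 at -0.04 ± 0.04, MNT at 0.07 ± 0.09 and MLX at -0.06 ± 0.05. No test compared these genes with MYC.

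**Figure D4:**
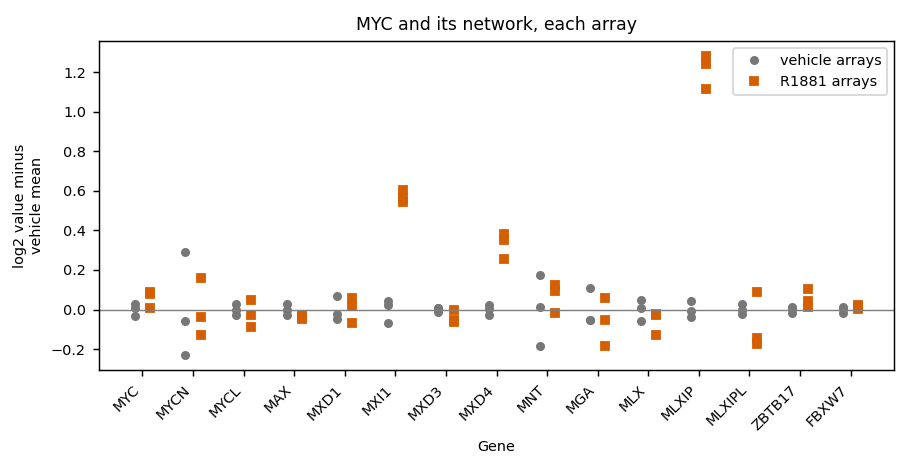
Log2 value of MYC and 14 network genes in each array minus the gene's vehicle mean (circles, 3 vehicle arrays; squares, 3 R1881 arrays). The R1881 arrays stand clear of the vehicle arrays in MXI1, MXD4 and MLXIP, while those of MYC lie within 0.09 of its vehicle mean.

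Related parts of the program were described by lists written from general knowledge, but chosen with earlier results of these data known. Their counts are therefore a description too. Of 18 measured partners of RNA polymerase I none passed, 14 were lower by sign and the median was -0.065. POLR1F, a subunit of the polymerase stalk, had the smallest p (-0.20 ± 0.05, adjusted p = 0.0884), while UBTF, which binds the ribosomal gene promoter, stood at 0.15 ± 0.05. Of 42 other small subunit factors none passed and 31 were lower by sign, with a median of -0.07 and PNO1 at -0.20 ± 0.05 as the smallest p. Of 43 other large subunit factors 1 fell, 42 did not pass and 30 were lower by sign, with a median of -0.07. The gene that fell was RRP8, a methyltransferase of the large subunit RNA (-0.25 ± 0.05, adjusted p = 0.0399). Whichever array was left out, it was no longer called (adjusted p 0.0914 to 0.158), and stood at -0.10 over the mean of its 2 probe sets. RRP8 kept its call in 5 of 16 alternative runs.

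Of 23 genes of the RNA exosome and pre-rRNA cleavage none passed, 22 were lower by sign and the median was -0.08, with RPP30, of the RNase P and MRP particles, at -0.22 ± 0.04 (adjusted p = 0.0609). Of 11 genes of snoRNP assembly none passed, 9 were lower by sign and the median was -0.08, with NAF1 at -0.19 ± 0.08. The 65 measured ribosomal protein genes had a median of -0.02, with 47 lower by sign and none called. RPS29, at -0.12 ± 0.05, had the smallest p among them. Of 30 translation and growth genes known as MYC targets none passed, 20 were lower by sign and the median was -0.04, with PRMT5 at -0.13 ± 0.04 as the smallest p.

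Of 17 genes of cell division 2 fell and 15 did not pass, beside 0.816% of all genes called lower. All 17 were lower by sign (48.7% of all genes) with a median of -0.16, and in 14 every R1881 array lay below every vehicle array (9.93%). The 2 genes that fell were MCM6 of the replicative helicase (-0.24 ± 0.04, adjusted p = 0.0399) and the sliding clamp gene PCNA (-0.23 ± 0.04, adjusted p = 0.0458). Neither was called once an array was left out, whichever it was (adjusted p up to 0.172), and PCNA stood at -0.115 over the mean of its 2 probe sets (adjusted p = 0.317). Over all 16 alternative runs, MCM6 kept its call in 6 and PCNA in 5, so some runs with every array lost it too. The median deviation of the 17 genes by array was 0.115, 0.065 and 0.077 with vehicle and -0.065, -0.107 and -0.073 with R1881, so that R1881 replicate 2 was the lowest array there as well. The part of cell division in the values of the assembly genes was not tested. Fewer transcripts per cell and fewer dividing cells cannot be told apart in these bulk samples.

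**Figure D5:**
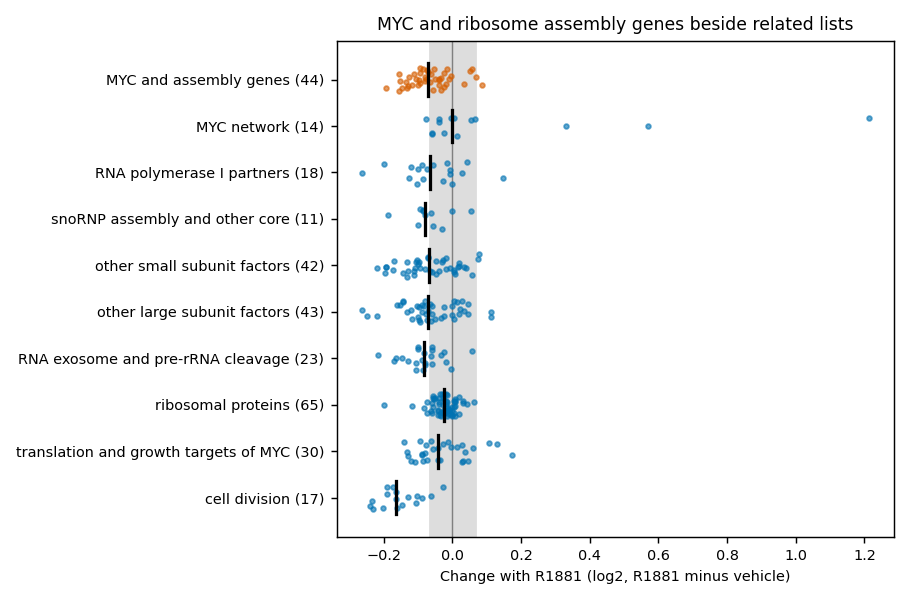
Change with R1881 (log2, R1881 minus vehicle) of each gene (points) of MYC and the assembly genes and of 9 related lists, with the list's median (black bars) and the number of genes in brackets. The grey band runs from the lower to the upper quartile of all 18129 genes; the assembly genes have a median of -0.07, cell division genes of -0.16, and 3 network genes lie far to the right.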

How the data were processed

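Total RNA of 6 samples, 3 per group, was hybridised to Affymetrix arrays. The deposited log2 values came from RMA, as the submitters' processing notes state. This method subtracts background, quantile-normalizes between arrays, which would hide a change of all transcripts in one direction, and summarises each probe set. Its version and any filter are not stated in the labels. The values have 2 decimals, so differences under 0.01 are not resolved, and the number of arrays limits precision.

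Of 49193 probe sets 44898 had 1 gene symbol, 1825 several and 2470 none in the platform annotation. R1881 was compared with vehicle with limma 3.58.1 (lmFit, eBayes, no trend) in R 4.3.3 over 18129 genes, with two-sided p-values adjusted by the Benjamini-Hochberg method. The background level is the 90th percentile of the means of 423 olfactory receptor and keratin-associated protein genes. The script was checked on simulated data. All 44 genes are named, with array values for MYC, the 10 smallest p and the extremes of each role; in each related list called genes, or else the smallest p, are named, and UBTF, the partners of MYC and the markers named were chosen after their values were seen. Members and lists were chosen with earlier results of these data known. Alternatives are given in the closing section.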

Additional observations from a re-analysis of the deposited data

How the results depend on the processing

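The median change of the 44 genes lay between -0.085 (arrays re-centred on their medians) and -0.06 over 16 alternatives, and between -0.08 and -0.06 without any 1 array. No gene of the 44 was called in 15 of the 16, and 1 (GAR1) was called with a trended and robust prior. Without any 1 array the count stayed at 0 (0 to 0). Genes called among all genes, 438 as reported, numbered 757 among genes above background only and 895 with the trended and robust prior. Without any 1 array they numbered 209 to 270. Counted as probe sets and not as genes, the calls were 722 with every single-gene probe set tested. With all probe sets, an alternative chosen after seeing the data, 759 probe sets were called. Of 303 recomputed values of the 19 genes given by array, 295 kept their sign and their side of the threshold. POLR1C turned to -0.071 with the mean of its probe sets, to -0.01 with sets without s or x preferred and ran from -0.028 to 0.092 without 1 array. Without 1 array NHP2 ran from -0.035 to 0.005, UTP14A from -0.072 to 0.063 and BOP1 from 0.00 (-0.0017) to 0.15. Lower by sign as reported, FBL, NOP14, DDX21 and GRWD1 reached 0.003, 0.008, 0.008 and 0.002 in such runs. With the replicate number as a block, 222 genes were called and none of the 44. Deviations of samples with the same number correlated at 0.09, 0.06 and 0.03, each the best of its sample, which is a hint from the data and not from the design, so the samples share only a number. UTP14A has no value among genes above background. Levels above background could be set only against the proxy genes.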
